A study of Mus musculus with 8 samples.

Results

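The interferon-stimulated antiviral genes are 36 mouse genes, listed by symbol, that cells switch on in response to interferon and that limit virus replication. They were taken from the list by matching symbols to the rows of a table of 55416 genes, where Ddx58 is also called Rigi. All 36 were found, and 32 passed the low-count filter. Zbp1, Mx2, Isg15 and Ifi44 did not pass it and were described by their counts alone. The genes were followed in 8 poly-A RNA-seq libraries of mouse small intestinal organoids, which are epithelial cultures grown from intestinal cells in a gel. The organoids came from C57BL/6 mice, 4 to 8 weeks old, with Rosa26-rtTA Tg/Tg together with Col1A1-TetO-OSKM Tg/Tg. That genotype carries a doxycycline-dependent activator and an inducible cassette of 4 reprogramming factors, and controls and irradiated organoids shared it. The labels used here do not say that the cassette was switched on in any of the 8 libraries. There were 4 groups of 2 libraries: untreated controls at day 4, organoids given 6 Gy of X-rays at day 4, untreated controls at day 7, and organoids given 6 Gy at day 7. The labels do not state from which event the days were counted.

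Interferons are secreted proteins that bind receptors on the cell surface and activate JAK kinases, which phosphorylate STAT proteins. The complex ISGF3, of which STAT2 and IRF9 are subunits, binds a DNA element called the interferon-stimulated response element (ISRE) beside the genes it activates. Another element, the gamma-activated sequence (GAS), serves responses to interferon gamma. In the intestine, epithelial cells respond mainly to type III interferons, and radiation is known to activate interferon-stimulated genes in many cell types through sensing of the cell's own nucleic acids. These statements are background and were not measured here.

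Start regions of the members are shown because many of them carry ISRE letters close to their start. RefSeq windows (GRCm38.p6) from 250 bases before to 50 bases after a start were matched for 26 of the 36 members, giving 31 windows. Dhx58, Zbp1, Oas2, Mx1, Mx2, Usp18, Parp9, Parp14, Ifi27 and Rtp4 were not matched. The ISRE core was searched as GAAANNGAA on both strands, with overlapping matches counted. It was present in 16 of the 26 matched members (61.5%) and in 9.76% of 27025 genes with a window. Of windows, 17 of 31 members' windows (54.8%) and 8.56% of all 32851 held it. The GAS letters TTCNNNGAA, which read the same on both strands, were found in 6 of 26 members (23.1%) and in 9.55% of genes. A match is a description of the letters and was not tested for binding. The stretches below are written 5′ to 3′ on the gene's own strand, with the ISRE core or its reverse complement in capitals. Ifit1 and Ifit1bl2 are given because they start beside each other on opposite strands. Ifit3, Isg15, Oas3 and Rsad2 are given because their counts were highest in the irradiated libraries of day 4. Cxcl10 and Bst2 also hold the core, and neither was called in any comparison.
Ifit1: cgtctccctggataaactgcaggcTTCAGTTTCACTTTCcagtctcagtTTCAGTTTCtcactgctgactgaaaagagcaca
Ifit1bl2: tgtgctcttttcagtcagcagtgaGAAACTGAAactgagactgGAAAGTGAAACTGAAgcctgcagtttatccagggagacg
Ifit3: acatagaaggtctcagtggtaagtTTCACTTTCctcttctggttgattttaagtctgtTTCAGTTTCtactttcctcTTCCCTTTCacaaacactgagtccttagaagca
Isg15: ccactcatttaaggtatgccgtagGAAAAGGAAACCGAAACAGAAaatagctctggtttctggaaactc
Oas3: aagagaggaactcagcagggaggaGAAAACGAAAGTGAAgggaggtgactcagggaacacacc
Rsad2: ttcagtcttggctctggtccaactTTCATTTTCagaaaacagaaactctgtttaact
Cxcl10: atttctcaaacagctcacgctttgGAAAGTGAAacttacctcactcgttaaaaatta
Bst2: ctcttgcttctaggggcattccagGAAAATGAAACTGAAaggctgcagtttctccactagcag

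The stretches of Ifit1 (plus strand) and Ifit1bl2 (minus strand) are the same 82 bases, chr19:34640756-34640837, read in opposite directions. The windows of these genes overlapped by 245 bases, chr19:34640694-34640938, their annotated starts lay 145 bases apart, and the overlap held 3 ISRE cores. Ifit1bl2 has another start in the table whose window held none. The other stretches lie at chr19:34583350-34583459 (plus) for Ifit3, chr4:156200852-156200920 (minus) for Isg15, chr5:120777696-120777758 (minus) for Oas3, chr12:26456539-26456595 (minus) for Rsad2, chr5:92349070-92349126 (minus) for Cxcl10 and chr8:71537564-71537626 (minus) for Bst2. The core was also present in windows of Ddx58, Eif2ak2, Ifi44, Ifih1, Ifit1bl1, Oas1a, Stat2 and Trim25. In Ddx58, Eif2ak2 and Ifi44 no ISRE core lay wholly before the start. The core was not in windows of Cmpk2, Dtx3l, Ifi35, Ifit2, Irf1, Irf7, Irf9, Oasl1, Oasl2 and Xaf1. Calls at day 4 did not separate them: 7 of the 14 tested members with the core rose, and 5 of the 10 without it. By chromosome, and without regard to distance, 5 IFIT members are on chromosome 19, the 5 OAS members with Cxcl10 on chromosome 5, 6 members on chromosome 16 (Dtx3l, Mx1, Mx2, Parp14, Parp9 and Rtp4), and Rsad2, Cmpk2 and Ifi27 on chromosome 12.

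Totals ranged from 7541764 to 16054269 expected counts per library, so that 1 count was worth 0.061 to 0.12 CPM (each library's counts divided by its TMM-adjusted total). Epithelial markers summed to between 3736 and 6095 CPM in the 8 libraries, so markers of the labelled cell type were present. Of 16 immune cell markers, 12 had 7 or fewer counts over all 8 libraries together, and 5 of these had none. The immune markers summed to 4.69 and 6.52 CPM in the controls of day 4 and to 8.92 and 10.7 CPM in the irradiated libraries of day 4, where Itgam and Csf1r passed the test. Endothelial markers summed to 1.53 and 1.65 CPM in those controls and to 3.66 and 6.10 CPM in those irradiated libraries. Of these 6 markers 2 were tested, Tek being higher at day 4 (adjusted p = 0.00422), and Tek and Pecam1 lower at day 7 than at day 4 after irradiation (adjusted p = 0.0421 and 0.015), while Cdh5 and Kdr had no count in any library. In bulk RNA, fewer cells of a type and less RNA per cell cannot be told apart. The 2 irradiated libraries of day 4 differed from each other: mitochondrial transcripts made up 20.3% and 27.6% of counts in replicates 1 and 2, and enterocyte markers summed to 11900 and 19410 CPM. In the controls of day 4 these values were 20.7% and 16.2%, and 3615 and 3289 CPM. The part of these differences in the results below was not tested. The irradiated libraries of day 4 are given separately for each member.

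At day 4, antiviral genes were higher in irradiated organoids than in controls. Of the 32 members tested, 16 rose and none fell (adjusted p under 0.05, edgeR's quasi-likelihood test), 14 of them by at least 2-fold, against a background of 36.5% of all 14063 genes called and 20% called higher. At an unadjusted p under 0.05 there were 19 members, and 6420 of all 14063 genes. The largest fitted changes belonged to Ifit1bl2, an IFIT gene, Mx1, a GTPase that blocks influenza virus, and Usp18, the protease that removes ISG15. Mx1 and Usp18 reached 10 counts only in the irradiated libraries of day 4. Elsewhere Ifit3 reached 10 only in control replicate 1 of day 4, and Oas2 only in control replicate 2. The filter scales this minimum by library size. On that scale Oas2, Oas3 and Cxcl10 reached it only in the irradiated libraries of day 4. Passing the filter and rising are therefore not independent for these genes. With no filter, 19 of 36 members rose and none fell, beside 18.5% of 30447 genes called. The median log2 fold change over the 32 was 1.41, beside 0.00 over all genes. In 20 members both irradiated libraries lay above both controls, and in none below, where 33.4% of all genes lay above and 31.8% below. The plot of members' levels shows these libraries one by one.

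The 2 irradiated libraries of day 4 did not carry this rise equally. Replicate 1 had 20 of 32 members above both controls and 10 more than 2-fold above the control mean, beside 42.4% and 8.8% of all genes, with a median log2 ratio of 0.53. Replicate 2 had 30 of 32 members above both controls and 24 more than 2-fold above, beside 42.2% and 9.78% of all genes, with a median of 1.80. All 32 members were higher in replicate 2 than in replicate 1, where 47.5% of all genes were, and 20 of 32 by more than 2-fold, where 2.4% of all genes were. Summed over the members, expression came to 420 and 411 CPM in the controls, and to 508 (replicate 1) and 1136 CPM (replicate 2) after irradiation. In the remaining groups the replicates were closer: 12, 15 and 15 of the 32 members were higher in replicate 2 of the day 4 controls, the day 7 controls and the irradiated organoids of day 7. Without irradiated replicate 2 the median log2 fold change fell to 0.55, with 20 of 31 tested members above 0 and 11 below. Without irradiated replicate 1 it was 2.30, with 34 of 35 above 0. The median was 1.98 without control replicate 1 of day 4 and 1.51 without control replicate 2 of day 4. Without either irradiated library of day 7 it was 1.49. Called in all 8 fits that left out a library were 6 members: Irf1, Ddx58, Ifit1bl1, Ifit1bl2, Mx1 and Ifi35. With mitochondrial transcripts left out and all libraries kept, 16 members were called, beside 37% of all genes.

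**Figure D1:**
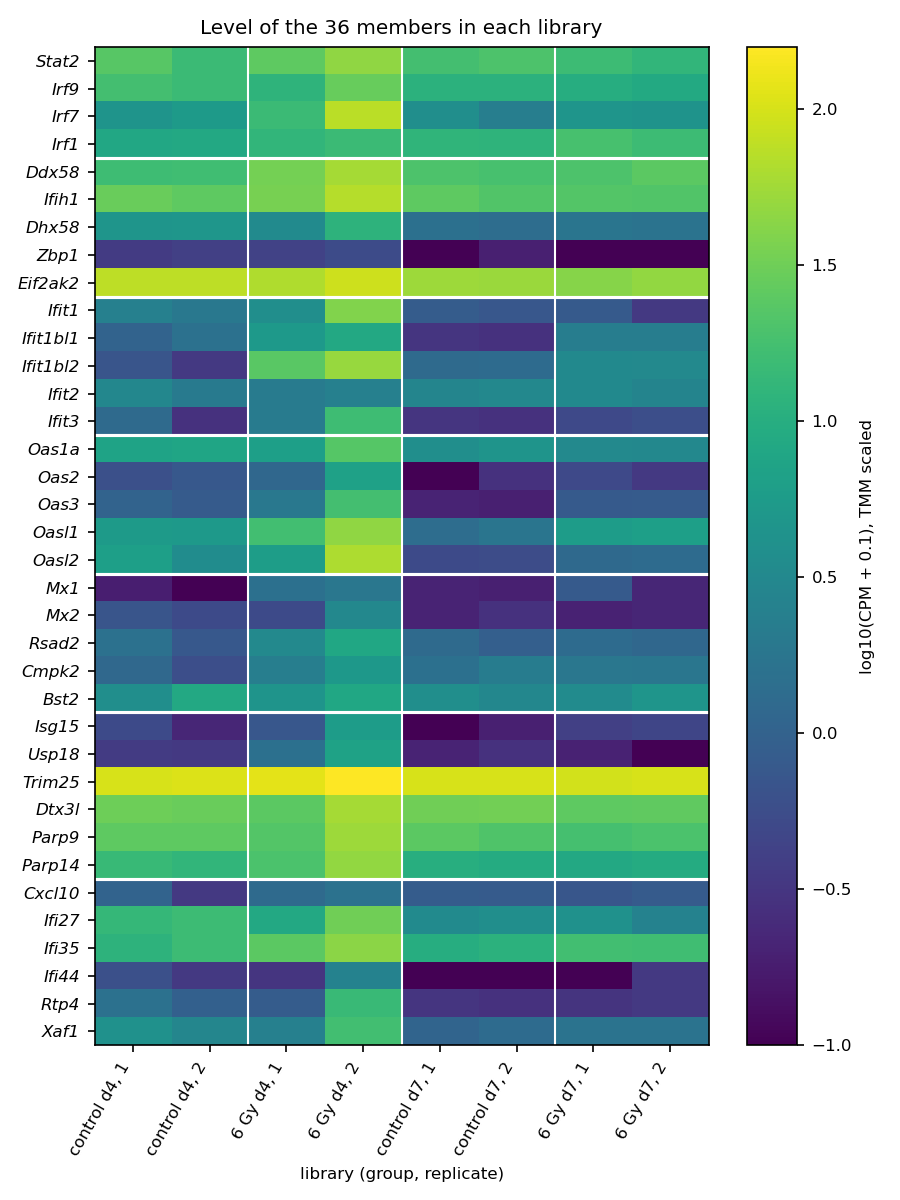
Heat map of the level of the 36 members (vertical axis, white lines between role classes) in each of the 8 libraries (horizontal axis, by group and replicate), with colour giving log10(CPM + 0.1). Replicate 2 of the irradiated organoids of day 4 was above replicate 1 for all 32 tested members.

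**Figure D2:**
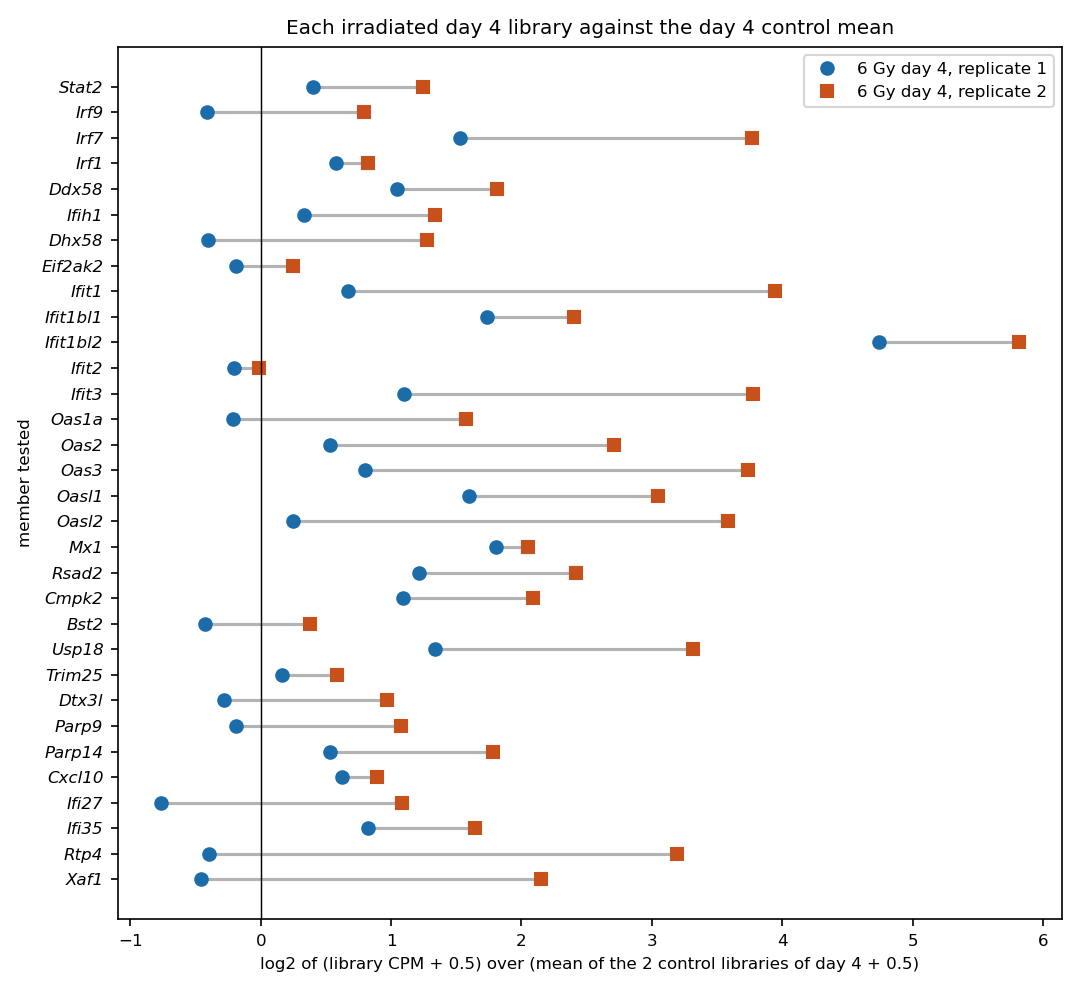
Log2 ratio of each irradiated library of day 4 to the mean of the 2 controls of day 4 (horizontal axis, 0.5 CPM added to both sides), for each tested member (vertical axis); circles are replicate 1 and squares replicate 2. The median was 0.53 in replicate 1 and 1.80 in replicate 2, and Ifit1bl2 lay farthest to the right in both.

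The transcription factors carry the signal from the receptor, or from sensors, to the genes. Of these, 2 of 4 rose at day 4, where 20% of all genes were called higher. The same share stands beside the count of each class below. Irf7, which amplifies interferon production, was at 4.43 and 5.42 CPM in the controls of day 4 and at 15.2 and 73.6 CPM in the irradiated libraries (log2 fold change 3.16 ± 0.82 SE, adjusted p = 0.0385). At day 7 it was at 3.76 and 2.21 CPM in controls and 4.59 and 4.33 CPM after irradiation. Both irradiated libraries of day 4 were thus above all others, replicate 2 by far. Irf1, which acts in interferon gamma and inflammatory responses, rose less, from 8.09 and 8.47 to 12.6 and 15.0 CPM (0.73 ± 0.17, adjusted p = 0.00615). Irf1 was not lower at day 7, at 12.3 and 12.0 CPM in controls and 18.6 and 15.5 CPM after irradiation. Stat2, a subunit of ISGF3 and the member of this class with the highest mean CPM, stood at 23.1 and 15.2 CPM in controls of day 4, 25.4 and 46.1 after irradiation, 17.2 and 20.0 in controls of day 7, and 15.4 and 12.5 after irradiation. Its rise at day 4 missed the threshold (0.91 ± 0.31, adjusted p = 0.0562). Irf9, the DNA-binding subunit, lay on both sides of the controls at day 4, at 17.3 and 15.0, then 12.0 and 28.3 CPM (0.32 ± 0.34, adjusted p = 0.496).

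The nucleic acid sensors recognise viral RNA in the cytoplasm, and 1 of 4 tested rose at day 4. That is close to the 20% of all genes called higher. Ddx58, which encodes the RNA sensor RIG-I, went from 15.8 and 16.5 CPM in controls to 33.8 and 57.8 CPM (1.501 ± 0.23, adjusted p = 0.00131). Its values at day 7 were 19.9 and 18.3 CPM in controls and 20.3 and 24.3 CPM after irradiation. There both irradiated libraries lay above both controls by a small margin (0.22 ± 0.24). The irradiated libraries of day 4 were the highest. Ifih1, the sensor MDA5, was at 29.6 and 25.4 CPM in controls of day 4, 34.7 and 70.0 after irradiation, 25.7 and 21.6 in controls of day 7, and 22.04 and 21.4 after irradiation. It did not pass at day 4 (0.93 ± 0.30, adjusted p = 0.0514). Dhx58, the helicase LGP2 that tunes both sensors, was at 4.52 and 4.63, then 3.33 and 11.8 CPM at day 4, and at 1.40 and 1.29, then 1.63 and 1.56 CPM at day 7. Its irradiated libraries of day 4 lay on either side of the controls. Eif2ak2, the kinase PKR that stops translation, had the highest mean CPM of the class, at 75.5 and 76.1, then 66.2 and 90.1 CPM at day 4, and 54.0 and 51.5, then 41.6 and 47.6 CPM at day 7 (0.04 ± 0.13 at day 4, adjusted p = 0.822). Zbp1, a sensor of left-handed nucleic acid, had 3 and 5 counts in controls of day 4 and 3 and 4 after irradiation. The ratio of summed counts was 1.33, with an exact 95% counting interval of 0.411 to 4.2.

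The IFIT proteins bind foreign RNA or its translation machinery, and 3 of 5 members rose at day 4. Ifit1bl2 was at 0.596 and 0.244 CPM in the controls of day 4 and at 24.2 and 51.4 CPM after irradiation (6.54 ± 0.50, adjusted p = 4.85e-05). As counts this was 697 over both irradiated libraries against 11 over both controls, a ratio of 96.5 with an exact 95% interval of 53.6 to 194 that covers counting error only. At day 7 it was at 1.18 and 1.20 CPM in controls and 3.16 and 3.13 CPM after irradiation. Ifit1bl1 moved from 0.937 and 1.46 to 5.16 and 8.49 CPM (2.47 ± 0.38, adjusted p = 0.000727), with both irradiated libraries above both controls. Ifit3 was at 1.19 and 0.183 CPM in controls and 2.04 and 15.8 CPM after irradiation (3.79 ± 1.10, adjusted p = 0.0372), and at 0.215, 0.184, 0.408 and 0.481 CPM at day 7, controls first. Its rise therefore lay mostly in replicate 2. Ifit3 counts are uncertain, since 51.2% of its transcript's 50-base stretches were shared with the near copy Ifit3b, whose counts were 6 and 13 in controls and 9 and 59 after irradiation. Ifit1 was at 2.39 and 1.83 CPM in controls, 3.66 and 39.6 after irradiation, 0.751 and 0.644 in controls of day 7, and 0.714 and 0.241 after irradiation. Despite its size, the difference at day 4 did not pass (3.37 ± 1.15, adjusted p = 0.079). Ifit2 was at 2.90 and 1.95 CPM in controls and 2.04 and 2.40 CPM after irradiation at day 4 (-0.11 ± 0.34, adjusted p = 0.83).

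Ifit1 and Ifit1bl2 differed although they share the start region shown above. In irradiated replicate 1 of day 4, Ifit1bl2 was at 24.2 CPM and Ifit1 at 3.66 CPM, whereas in replicate 2 they were at 51.4 and 39.6 CPM. In the controls of day 4 the order was the other way, Ifit1 being higher in both. Their longest transcripts shared 7.06% and 5.55% of 50-base stretches. Ifit1bl2 shared 4.22% with Ifit1bl1, so that some reads could be split among the 3.

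**Figure D3:**
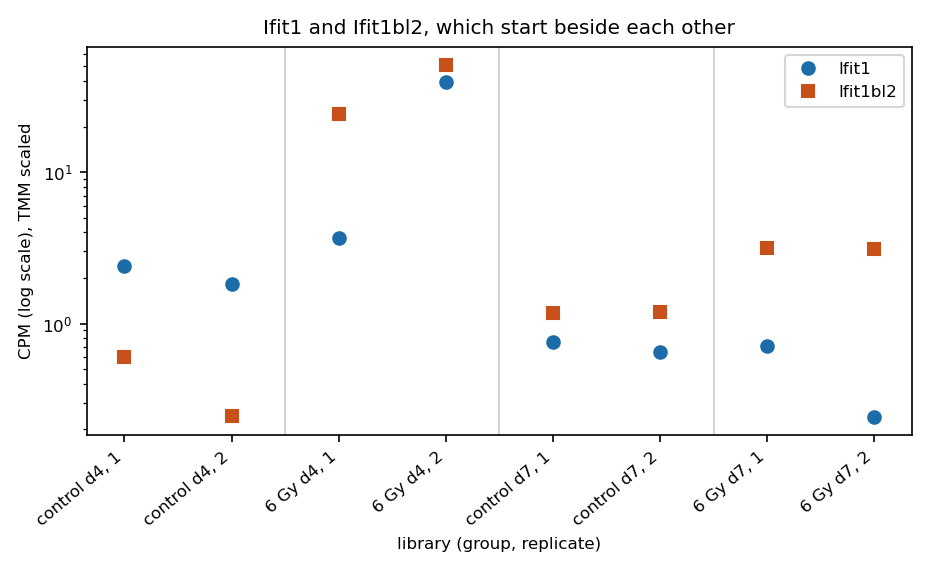
Ifit1 (circles) and Ifit1bl2 (squares) in each of the 8 libraries, in CPM on a log scale. Ifit1bl2 was high in both irradiated libraries of day 4 (24.2 and 51.4 CPM), Ifit1 in replicate 2 (39.6 against 3.66 CPM).

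OAS enzymes sense double-stranded RNA and make short adenylate chains that activate RNase L, which cuts RNA. At day 4, 3 of the 5 members rose. Oasl1, a related protein known to limit translation of Irf7 mRNA, had the highest mean CPM of the class over the 8 libraries, although Oas1a was higher in controls, and went from 5.37 and 5.06 to 16.8 and 46.8 CPM (2.61 ± 0.46, adjusted p = 0.00555). At day 7 it was at 1.29 and 1.66 CPM in controls and 5.72 and 6.26 CPM after irradiation. Both irradiated pairs lay above the controls of their day. Oas3 went from 0.937 and 0.731 to 1.83 and 17.3 CPM (3.52 ± 0.98, adjusted p = 0.0319), and was at 0.107 and 0.092, then 0.714 and 0.722 CPM, at day 7. Oas2 had 6 and 11 counts in controls and 10 and 61 after irradiation at day 4 (0.511, 0.670, 1.08 and 6.64 CPM; 2.66 ± 0.81, adjusted p = 0.0296), and 0, 2, 4 and 2 counts at day 7. Replicate 2 held most of both rises. Oas1a was at 7.07 and 7.56, then 6.24 and 22.8 CPM, at day 4 (0.98 ± 0.52, adjusted p = 0.189) and at 3.76 and 4.41, then 3.06 and 3.01 CPM, at day 7. Its counts are uncertain too, with 56.9% of 50-base stretches shared with Oas1g. Oasl2 was at 6.31 and 3.47 CPM in controls and 5.91 and 64.0 CPM after irradiation at day 4, and did not pass (2.86 ± 1.14, adjusted p = 0.122).

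Of the other antiviral effectors, 3 of 4 tested rose at day 4. Mx1, of which C57BL/6 mice are known to carry a defective allele, had 1 and 0 counts in controls and 13 and 16 counts after irradiation (0.0852, 0, 1.40 and 1.74 CPM; 5.05 ± 1.03, adjusted p = 0.00368). The ratio of counts was 44.1, with an exact 95% counting interval of 7.32 to 1800. At day 7 Mx1 had 1 and 1 counts in controls and 7 and 1 after irradiation. Rsad2 encodes viperin, which makes a nucleotide that ends viral RNA chains, and Cmpk2 lies beside it and encodes a nucleotide kinase. Rsad2 went from 1.45 and 0.670 to 3.12 and 7.84 CPM (2.40 ± 0.53, adjusted p = 0.0055) and was at 1.18, 0.828, 1.22 and 1.08 CPM at day 7. Cmpk2 went from 1.11 and 0.488 to 2.26 and 5.01 CPM (2.22 ± 0.54, adjusted p = 0.00914) and was at 1.40, 2.11, 1.73 and 1.68 CPM at day 7. Both were highest in irradiated replicate 2 of day 4. Bst2, the tether that holds budding virus on the cell, was at 3.66 and 8.53, then 4.41 and 8.06 CPM at day 4 and 3.76, 2.94, 3.37 and 4.57 CPM at day 7, with a difference of 0.01 ± 0.42 at day 4 (adjusted p = 0.992). Mx2, untested, had 7 and 7 counts in controls of day 4 and 4 and 28 in irradiated replicates 1 and 2.

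ISG15 is a ubiquitin-like protein joined to new proteins, and the class around it, with ubiquitin ligases and ADP-ribose enzymes, had 3 of 5 tested members higher at day 4. Usp18, which removes ISG15 and also dampens the interferon receptor, had 3 and 4 counts in controls and 13 and 64 after irradiation (0.256, 0.244, 1.40 and 6.97 CPM; 4.01 ± 0.82, adjusted p = 0.0041), with 1, 2, 1 and 0 counts at day 7. Isg15 itself had 5 and 2 counts in controls and 6 and 53 after irradiation at day 4, so its 59 irradiated counts came almost wholly from replicate 2. Parp14, an ADP-ribosyltransferase, went from 14.4 and 12.6 to 19.7 and 47.7 CPM (1.32 ± 0.38, adjusted p = 0.0331) and was at 9.98, 9.29, 8.37 and 9.14 CPM at day 7. Trim25, the ubiquitin ligase that activates RIG-I and the most abundant of the class by CPM, changed little: 102 and 108 CPM in controls, 118 and 158 CPM after irradiation (0.39 ± 0.12, adjusted p = 0.0284). At day 7 it was at 102, 103, 94.2 and 100.2 CPM. Dtx3l and Parp9 work as a complex. At day 4 Dtx3l was at 31.4 and 28.9 CPM in controls, then 24.7 and 59.3 CPM in irradiated replicates 1 and 2. Parp9 was at 25.3 and 25.1, then 22.04 and 53.8 CPM. In both genes irradiated replicate 1 lay below both controls and replicate 2 above, and neither passed edgeR's test (adjusted p = 0.362 and 0.284).

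Among the other induced genes, 1 of 5 tested rose at day 4, no more than the 20% of all genes called higher. Ifi35, a leucine zipper protein, went from 11.6 and 15.5 to 24.3 and 43.4 CPM (1.31 ± 0.26, adjusted p = 0.00522). At day 7 it was at 9.66 and 11.1 CPM in controls and 17.1 and 16.6 CPM after irradiation, above the controls at both days. Ifi27, a mitochondrial protein, lay on both sides of the controls: 13.5 and 15.7, then 8.39 and 31.6 CPM at day 4, and 3.33, 3.68, 4.08 and 2.53 CPM at day 7. The test gave 0.45 ± 0.56 at day 4 (adjusted p = 0.587). Without irradiated replicate 2 of day 4 Ifi27 fell by 0.81 (adjusted p = 0.0341), and without replicate 1 it rose by 1.09 (adjusted p = 0.00133). Rtp4, a chaperone of membrane receptors, was at 1.45 and 0.853 CPM in controls of day 4 and 0.753 and 14.6 CPM in irradiated replicates 1 and 2. Xaf1, which promotes cell death, was at 4.00 and 2.86, then 2.37 and 17.0 CPM. In both genes irradiated replicate 1 lay below both controls, and neither passed (adjusted p = 0.114 and 0.187). The chemokine Cxcl10 had 11 and 4 counts in controls and 11 and 14 after irradiation at day 4. Ifi44 had 6 and 4 counts in controls and 2 and 23 after irradiation.

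On a per-length scale (TPM, in which counts are divided by transcript length), which allows genes to be ranked, Ifi27 (27.9 TPM), Eif2ak2 (26.4 TPM) and Trim25 (25.1 TPM) had the highest means in the controls of day 4, and their 2 libraries overlapped. In the irradiated organoids of day 4, Irf7 (14.9 and 59.9 TPM), Ifi27 (14.1 and 49.5 TPM) and Ifi35 (26.2 and 36.7 TPM) had the highest means, and these neighbours also overlapped. Zbp1 and Ifi44 had the lowest mean TPM over the 8 libraries and did not differ beyond the step of the deposited values.

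At day 7 few members were called between irradiated and control organoids. Of 32 members, 1 rose and none fell, with 8.65% of all genes called, 4.7% higher and 3.95% lower. The member was Ifit1bl1, at 0.215 and 0.184 CPM in controls and 2.14 and 2.17 CPM after irradiation (3.37 ± 0.58, adjusted p = 0.00819), which as counts was 39 against 4, a ratio of 10.9 with a counting interval of 3.92 to 41.9. The call was lost when any library of day 7 was left out (highest adjusted p = 0.0952). At an unadjusted p under 0.05 there were 5 members, and 3636 of all 14063 genes. Without irradiated replicate 1 or 2 of day 4, the median log2 fold change at day 7 was 0.21 and 0.15. The median log2 fold change was 0.18, and in 14 members both irradiated libraries lay above both controls and in 10 below, where 33.3% and 32.6% of all genes did. Irf1 (0.49 ± 0.16, adjusted p = 0.0902), Ifit1bl2 (1.40 ± 0.56, adjusted p = 0.166), Oasl1 (2.002 ± 0.66, adjusted p = 0.116) and Ifi35 (0.70 ± 0.29, adjusted p = 0.171) lay above both controls without passing. The fit shared its estimate of spread over all groups, so the replicate gap of day 4 entered the errors at day 7. Oas3, at 0.107 and 0.092, then 0.714 and 0.722 CPM, had a log2 fold change of 2.72 ± 1.97. Members not called were thus not shown to be unchanged. The plot of effects shows both days member by member.

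**Figure D4:**
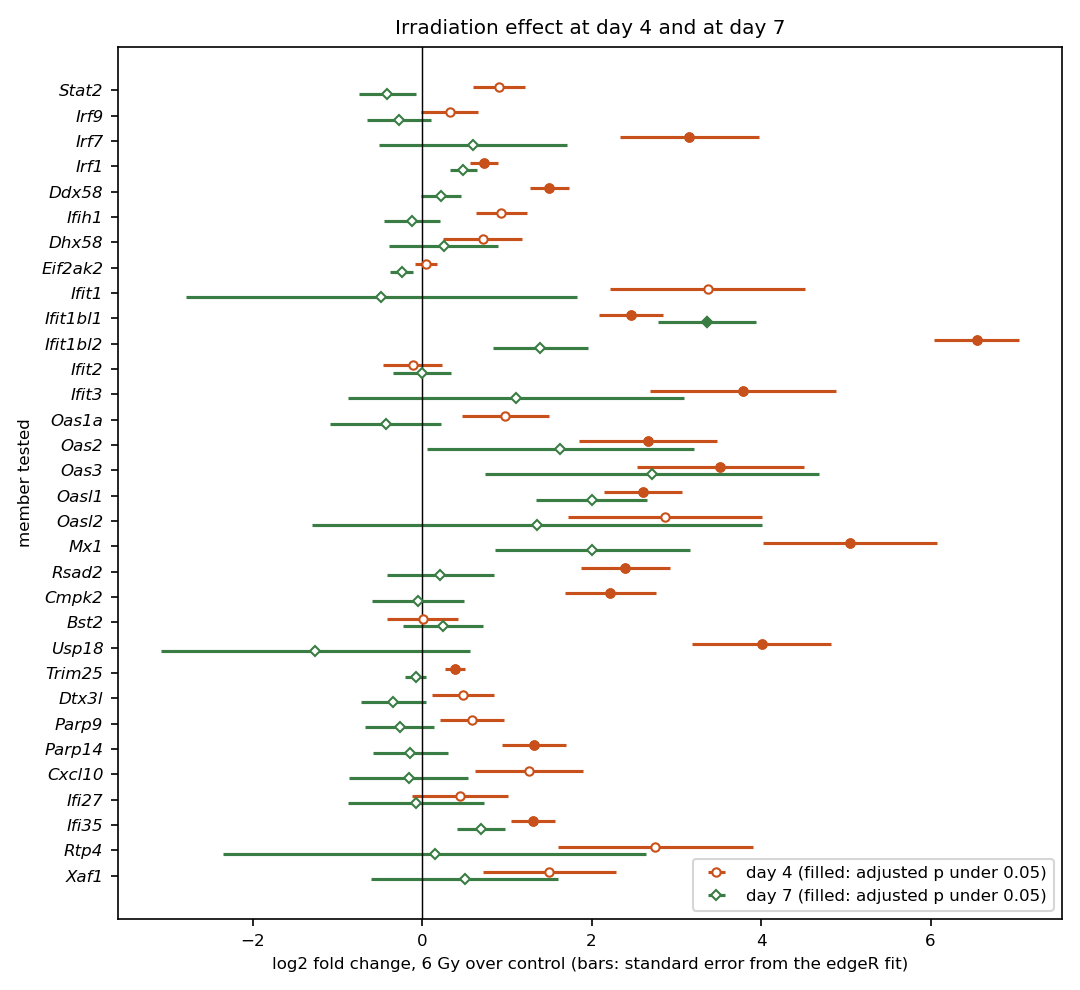
Fitted log2 fold change, irradiated over control, of each tested member (vertical axis) at day 4 (circles) and day 7 (diamonds), with standard errors; filled symbols passed an adjusted p under 0.05. At day 4 16 symbols are filled and at day 7 1, that of Ifit1bl1.

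The effect of irradiation was compared between the days by an interaction term. It was smaller at day 7 for 2 of 32 members and larger for none, with 10.1% of all genes called, 4.6% higher and 5.51% lower. These were Ifit1bl2 (difference in log2 fold change -5.15 ± 0.88, adjusted p = 0.0124) and Ddx58 (-1.28 ± 0.33, adjusted p = 0.0451). The remaining members' effects were not shown to differ between the days. The median difference was -1.04, and 8 of 32 members had an unadjusted p under 0.05, as had 3852 of all 14063 genes. Leaving out irradiated replicate 1 of day 4 gave 22 members, and leaving out any library of day 7 gave none. It was 0 without control replicate 2 of day 4 and 1 without control replicate 1 of day 4.

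Within irradiated organoids, antiviral genes were lower at day 7 than at day 4. Of 32 members 20 fell and none rose, where 33% of all genes were called and 18.3% called lower. At an unadjusted p under 0.05 there were 26 members, and 6164 of all 14063 genes. This comparison shares its day 4 libraries with that of irradiation at day 4, so it is not a second line of evidence, and the high replicate 2 enters both. All 4 tested sensors fell, among them Eif2ak2 (-0.81, adjusted p = 0.00211), which had not risen over control at day 4. IFIT and OAS members fell in 4 of 5 cases each, Ifit1bl2 by 3.58 on the log2 scale (adjusted p = 0.000566), Ifit1 by 5.42 (adjusted p = 0.0486) and Oas1a by 2.25 (adjusted p = 0.0282). Usp18 had 77 counts at day 4 and 1 at day 7, a ratio of 75.4 with a counting interval of 13.1 to 3020 (adjusted p = 0.00343). Stat2 fell by 1.35 (adjusted p = 0.0193), Ifih1 by 1.27 (adjusted p = 0.0233), Dhx58 by 2.23 (adjusted p = 0.0136) and Ifi27 by 2.57 (adjusted p = 0.0361), none of which had been called over control. Some of these were also lower at day 7 in controls without passing there, with log2 differences for Dhx58 of -1.76 ± 0.55 (adjusted p = 0.138), for Ifi27 of -2.06 ± 0.67 (adjusted p = 0.194) and for Eif2ak2 of -0.52 ± 0.13 (adjusted p = 0.072). All 5 OAS members had both control libraries of day 7 below both of day 4, and none was called. The OAS median was -2.47 in controls and -3.50 in irradiated organoids. For the IFIT members it was -1.57 and -3.58, and Ifit1bl1 differed by -2.55 ± 0.60 in controls. In irradiated organoids, 28 members had both libraries of day 7 below both of day 4 and 2 had them above, where 37.1% and 32.6% of all genes did. Ifit1bl2, Usp18 and Eif2ak2 were the 3 members called in each fit that left out a library. Without either irradiated library of day 7 only 3 members passed, and without irradiated replicate 1 of day 4 30 of 35 tested passed. In controls, no member differed between day 7 and day 4 by edgeR (2.72% of all genes called, 1.25% higher and 1.46% lower). For this comparison 6 members had an unadjusted p under 0.05, as had 2518 of all 14063 genes. DESeq2 called 3 members and 3.05% of all genes. There, 18 members lay lower at day 7 in both libraries and 6 higher, where 26.5% and 26% of all genes did. Without irradiated replicate 1 or 2 of day 4 this comparison called 11 and 8 members, and 1 without control replicate 1 of day 4.

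**Figure D5:**
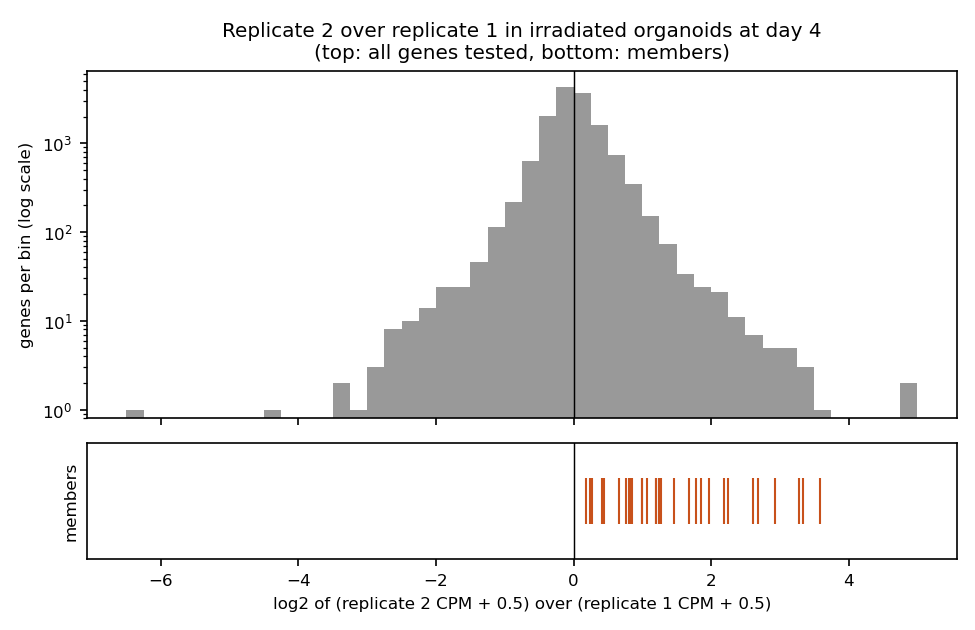
Log2 ratio of replicate 2 to replicate 1 in irradiated organoids of day 4 (horizontal axis, 0.5 CPM added to both), as the number of genes per bin on a log axis for all 14063 tested genes (top) and as 1 tick per tested member (bottom). All genes had a median of -0.02, and the members had a median of 1.23 with every one above 0.

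In irradiated organoids of day 4, the members most different between replicates were Rtp4, Oasl2 (5.91 and 64.0 CPM) and Ifit1 (log2 ratios 3.59, 3.33 and 3.27), and the least different were Ifit2, Mx1, Irf1 and Cxcl10 (0.19, 0.24, 0.25 and 0.27). Among the 10644 genes averaging 5 CPM or more in these 2 libraries, 7 of the 30 with the largest ratio were members, and 3 were on the list of other interferon-stimulated genes (Apol9a, Trim30a and Ddx60). Irgm2, an interferon-inducible GTPase on neither list, was among them as well, at 1.40 and 9.04 CPM. The same 30 held genes known for other roles: Ak4 was at 9.57 and 68.8 CPM and Egln3 at 27.6 and 130.2 CPM, both known to be induced by low oxygen. Irgm2, Ak4 and Egln3 were chosen after their values were seen. The part of oxygen in the members' difference was not tested.

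Interferon transcripts were scarce. Of 16 ligand genes none passed the filter, and 3 (Ifna1, Ifnz and Ifnk) had any count, with 6 counts in all, 1 of them in an irradiated library (Ifnk). A count of 0 allows up to 3 counts, or 0.183 to 0.361 CPM per library, so lower levels were not detectable. Receptor and kinase genes were in the same range in both irradiated libraries of day 4. Of 9 tested, 6 rose and none fell, where 20% of all genes rose and 16.5% fell: Ifnar2, a type I receptor chain, went from 7.41 and 7.86 to 14.7 and 15.0 CPM (0.96 ± 0.17, adjusted p = 0.0019). Ifnar1, its partner, went from 38.6 and 40.2 to 51.7 and 53.2 CPM (0.41 ± 0.09, adjusted p = 0.00576). Ifnlr1, the type III receptor chain, went from 11.4 and 15.5 to 19.8 and 19.6 CPM (0.54 ± 0.17, adjusted p = 0.0314). Il10rb, which pairs with it, rose by 0.84 ± 0.12 (adjusted p = 0.000566), and Ifngr1, a receptor for interferon gamma, did not pass (-0.07 ± 0.11, adjusted p = 0.633).

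Of 9 sensors and adaptors upstream of interferon, 5 rose, including the kinase Ikbke (0.75 ± 0.12) and the RNA sensor Tlr3 (0.65 ± 0.13), and 1 fell, the DNA sensor Cgas (-0.70 ± 0.13, adjusted p = 0.00252), against the same background. Of 7 negative regulators, 1 rose, the phosphatase Ptpn6 (0.53 ± 0.18), and 1 fell, Ptpn2 (-0.39 ± 0.09), which is no more than that background. Of 34 other interferon-stimulated genes tested from a list of 46, 9 rose and 3 fell, with a median of 0.66, beside 20% of all genes called higher and 16.5% lower. Apol9a had the largest fitted change (4.00 ± 1.36) and did not pass (adjusted p = 0.0622). Among those that passed, the largest changes were those of Trim30d (3.45 ± 0.61, from 1.87 and 2.19 to 9.89 and 35.2 CPM), Ddx60 (2.69 ± 0.78), Slfn2 (2.64 ± 0.61) and Parp12 (2.49 ± 0.33). In irradiated organoids at day 7 against day 4, 3 of the 34 were higher and 14 lower, beside 14.7% and 18.3% of all genes.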

How the data were processed

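Poly-A RNA-seq of 8 organoid libraries was used. Per the submitters' processing notes, STAR 2.7.3a and RSEM 1.3.3 were used after trimming with Trim Galore, with GRCm39 and mm10 both named without a role. No source used here gives the annotation or the strand setting, and antisense reads may be mixed in. The authors deposited expected counts per gene, as RSEM estimates them, of which 11.4% were not whole, and TPM values per gene, also deposited. Counts were rounded. A single edgeR 4.0.16 fit (TMM, filterByExpr with a minimum count of 10 and total of 15, robust quasi-likelihood F-test, R 4.3.3) held 4 group means and 4 residual degrees of freedom. Adjustment was Benjamini-Hochberg over 14063 genes in each of 5 comparisons, and the code was tested on simulated data. DESeq2 1.42.0, limma 3.58.1 on voom weights or on TPM, other filters and scalings, and fits leaving out each library were the alternatives. CPM values are scaled by TMM; log2 ratios of single libraries add 0.5 CPM. Ratios of summed counts have exact 95% binomial intervals. Members called anywhere, and the most abundant member of each class, are given for every library. The members and gene lists were chosen with earlier results of these data known. The labels do not say that replicates came from separate cultures or animals, so p-values measure only the spread between these samples, which may be technical. Precision is limited by 2 libraries per group. Protein sequences were not used here, and 1 gene of the context lists, with its list's count, is not reported here.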

Additional observations from a re-analysis of the deposited data

Results flagged for a closer look

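The irradiation effect differed between days by the interaction test for 2 members. For Ifit1bl2 the log2 effect at day 7 less that at day 4 was -5.15 (adjusted p = 0.0124, edgeR), its level being higher than in controls in both irradiated libraries of each day. For Ddx58 the same difference was -1.28 (adjusted p = 0.0451), with both irradiated libraries above both controls at each day. Neither was called in all 8 fits that left out a library: Ifit1bl2 passed in 3 and Ddx58 in 2. With limma-voom no member passed this test.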

How the results depend on the processing

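With 2 libraries a group, calls depend on single libraries and on the filter. Day 4 called 16 members, 10 with a filter of 5 CPM in 2 libraries (18 members tested), 6 with limma on log2(TPM + 1) or log2(TPM + 0.1), 9 with only the groups compared, and 8 to 31 when a library was left out (median 0.55 to 2.30); its median of 1.41 became 0.64 and 0.90 on the TPM scales. Of all genes, day 4 called 36.5%, and 42.6% with the filter of 5 CPM. The share was 18.7% and 18.1% on the TPM scales (30 members tested). With only the groups compared it was 23.3% (32 members tested). The members called under these settings were all higher. Day 7 called 1 of 32 (8.65% of all genes), 4 of 36 with no filter (6.71%) and 0 of 18 with the stricter filter (11.7%). It called 2 of 32 with DESeq2 (6.31%) and 2 of 30 with log2(TPM + 0.1) (2.16%). With only the groups compared it called 8 of 24 (5 higher, 3 lower), beside 36.3% of all genes. Its median of 0.18 became 0.23, -0.086, 0.32 and 0.10 with no filter, the stricter filter, log2(TPM + 0.1) and only the groups compared, and 0.062 to 0.27 without a library. The interaction called 2, 8 with no filter, 4 with DESeq2, 0 with limma-voom, 1 with either TPM scale and 0 to 22 without a library (median -1.65 to -0.13); its median of -1.04 became -0.54 and -0.37 on the TPM scales. Day 7 against day 4 in controls called 0 of 32 (2.72%), 6 of 36 with no filter (4%) and 3 of 32 with DESeq2 (3.05%). With only the groups compared it called 5 of 25 (4.61%). Its median of -0.52 became -0.75 with no filter, -0.35 with log2(TPM + 1) and -0.72 to -0.52 without a library. In irradiated organoids, day 7 against day 4 called 20 of 32 (33%), 13 of 18 with the stricter filter (38.9%) and 12 of 32 with limma-voom (30.3%). It called 12 and 11 of 30 with the TPM scales (27% and 25.9%). With only the groups compared it called 6 of 30 (29.4%). Its median of -1.88 became -0.86 and -1.17 with the TPM scales and -2.74 to -1.03 without a library. The cause of these moves was not tested, except that a stricter filter tests fewer members. A library left alone in its group is assumed to vary like the others. Of single-member results, 1 reversed: Ifi27 at day 4, -0.81 without irradiated replicate 2 and 1.09 without irradiated replicate 1, the lowest and highest of its values without a library.

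On the TPM scales the median of all genes moved to -0.17 and -0.20 at day 4, and 1074 of 2686 and 1024 of 2598 calls were higher, against 2808 of 5130. In irradiated organoids between days it was 3158 of 3892 and 3088 of 3727, against 2071 of 4639. All members called on those scales kept their direction.

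Same-numbered libraries did not deviate together (correlations from -0.03 to 0.07 across 14063 genes), so the numbers were not taken to pair them. With a replicate block the comparisons called 14, 1, 2, 1 and 17 members at day 4, at day 7, in the interaction, between days in controls and between days in irradiated organoids.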
